A study of Arabidopsis thaliana with 18 samples.

Results

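The genes described here were raised in wild-type Arabidopsis seedlings 24 h after a move from cool to warm, but not at 2 h. They were chosen on measured values of the wild-type accession Col-0. A gene was taken when its mean at 24 h lay at least 1.5 log2 units above that at 12 °C, its mean at 2 h lay within 0.5 of that at 12 °C, both arrays at 24 h exceeded the other Col-0 arrays, and its mean at 24 h was at least 7. Of 22746 probe sets, the units in which the array reports genes, 496 met the first condition, 66 of these were flat at 2 h, all 66 had separate arrays, and 31 also met the level. Of these 31 members, 22 are paired with 1 gene, 1 is paired with several genes and 8 are not listed in the annotation, and the last 9 are given by probe set identifier with no gene name. The scale throughout is log2 of the deposited intensity plus 16 after quantile normalization, which cannot go under 4.

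Each of 18 whole-seedling samples was hybridised to its own Affymetrix array. The labels give 6 groups. Col-0, the wild type, has 2 arrays at 12 °C, 2 at 2 h and 2 at 24 h after the shift to 27 °C, and the mutant arp6-10 has 4 arrays at each of these points. All seedlings carry an age label of 8 days and share a history of 48 h at 4 °C in the dark, germination at 20 °C in light and, from day 5, 3 days at 12 °C under continuous light. No group was kept at 12 °C for the further 2 h or 24 h, so warmth and elapsed time cannot be told apart. The sources used here describe arp6-10 only as a mutant, ARP6 has no named probe set and the lesion was therefore not checked. Nothing in the labels ties the arrays of a group to separate cultures, and the p-values reflect only the variation among these samples, possibly technical.

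The SWR1 chromatin remodelling complex, to which the actin-related protein ARP6 belongs, exchanges histone H2A for the variant H2A.Z in nucleosomes. Plants that lack ARP6 resemble warm-grown plants in several traits at cooler temperatures, and H2A.Z occupancy at many promoters is known to fall as temperature rises. A transcript that changes within hours of warming can differ from one that changes only after a day, when growth, metabolism and cell division have also adjusted. For these genes the questions were therefore what they encode, whether they rose in arp6-10 after the shift, and where their levels lay in arp6-10 before it.

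The arrays labelled arp6-10 12 °C replicate 3 and arp6-10 24 h replicate 2 stood apart from the rest of their groups. On an axis over the 15922 tested probe sets, set to 0 at the mean of the arp6-10 arrays at 12 °C and to 1 at that at 24 h, with these 2 arrays and the array being placed left out of both means, the first lay at 0.96 and the second at -0.04. The other arrays lay at 0.08 to 0.14 at 12 °C and 0.88 to 0.93 at 24 h. Of the 31 members, 27 on the first array and 26 on the second were nearer to the mean of the other group than to that of their own. The ratio of the 3' to the 5' GAPDH control was 5.51 and 1.51 on these arrays and spanned 1.47 to 6.78 over all 18, and its part in any result was not tested. Results on arp6-10 are therefore given with all 18 arrays as labelled and with the 16 other arrays. The 16 were chosen after the data were seen and along the very axis that 24 h minus 12 °C measures, so calls on them depend on that choice.

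**Figure D1:**
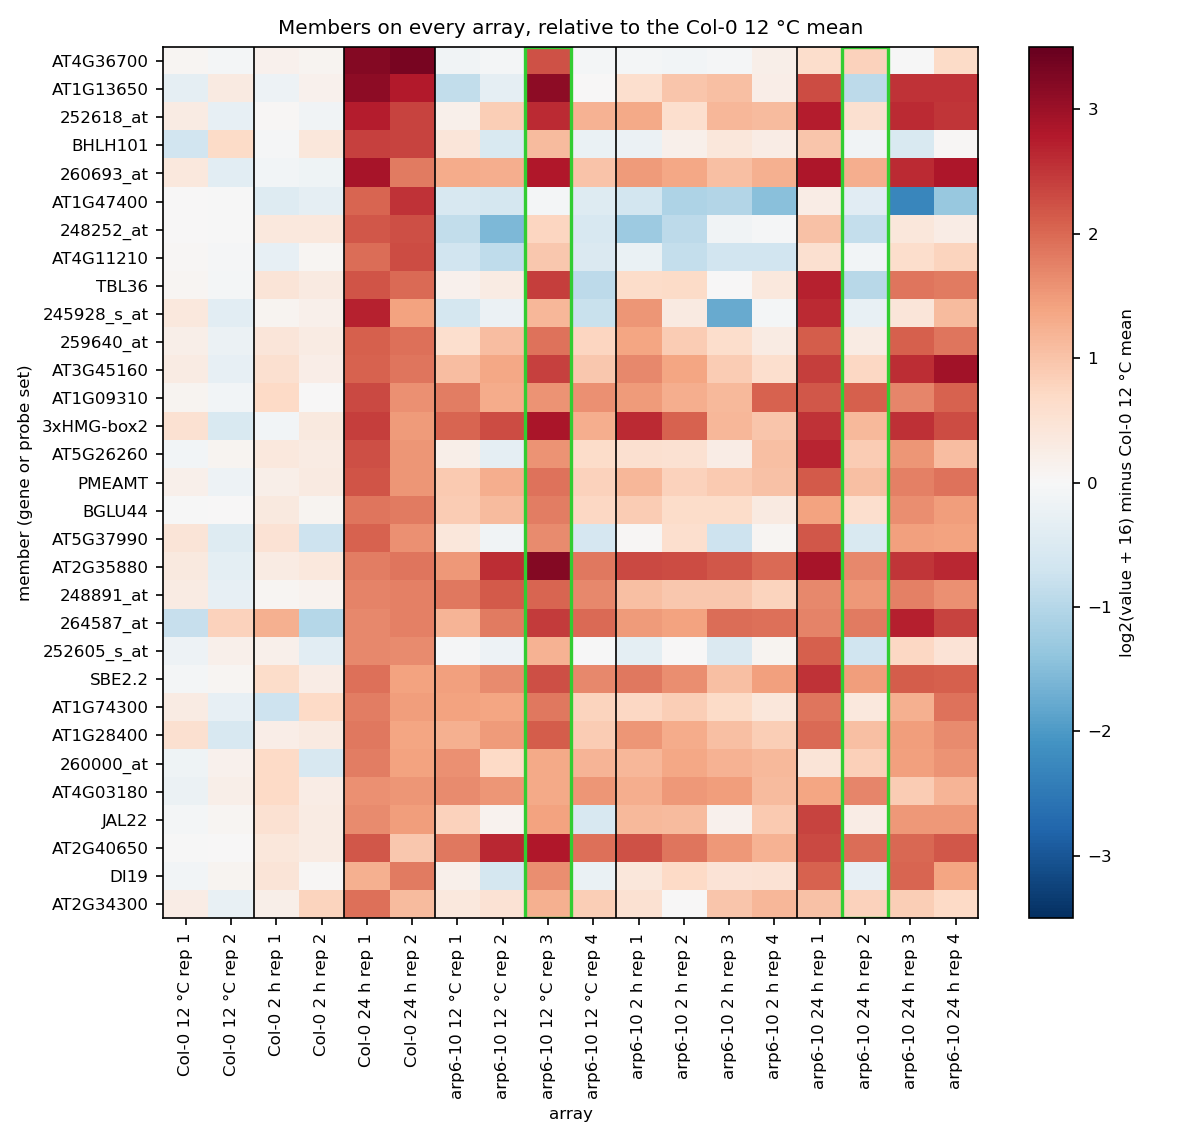
Level of each of the 31 members (rows, ordered by the Col-0 rise) on each of the 18 arrays (columns), as the log2 difference from that member's mean in Col-0 at 12 °C. The Col-0 columns at 24 h are high by the choice of members, and the outlined columns, arp6-10 12 °C replicate 3 and arp6-10 24 h replicate 2, differ from their neighbours.

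In Col-0 the members rose by a median of 1.88 log2 units at 24 h, with a range of 1.51 to 3.27, which on this scale corresponds to 2.85-fold to 9.64-fold, the highest being rough because its cool values lie at the floor. At 2 h their median difference from 12 °C was 0.22, with a range of -0.39 to 0.49. Their mean level at 24 h ran from 7.01 to 12.90. These values made the choice and are a description, and in whole seedlings more cells of a type and more RNA per cell cannot be told apart. The fit called 10.3% of all tested probe sets higher at 24 h in Col-0 and 21 of the 29 members it tested, a count the rule itself fixes. AT4G36700 and BHLH101 were too dim on average for the filter and have no test.

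Near the limits of the rule, AT2G34300 with a rise of 1.51 and DI19 with 1.52 lay just inside, and 2 probe sets without a gene name, both at 1.49, lay just outside. At 2 h, AT2G34300 at 0.49 and AT4G03180 at 0.47 were inside, while AT1G72640 at 0.51 and MSRB9 at 0.53 were outside. On the other side AT1G47400 at -0.39 was the nearest member, and the nearest probe set left out was at -0.55. For the level at 24 h, AT1G74300 at 7.01 was inside and ATGSTF13 at 6.99 was outside. The same rule gave 53 members without Col-0 2 h replicate 1, 68 without Col-0 24 h replicate 2, and 65 on the values as deposited, of which 28 were among the 31.

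By function the 8 members with a gene symbol were varied: the transcriptional regulators BHLH101 and DI19, the chromosome protein 3xHMG-box2, the enzymes PMEAMT, SBE2.2 and BGLU44, the cell wall family member TBL36 and the lectin JAL22. A further 14 carry only a locus name and are given no role here, except AT1G47400, which the iron-deficiency literature counts among small peptides induced by iron shortage. None of the 22 named members was on any of 17 gene lists compiled for this tissue and treatment, which cover photosynthesis, heat shock, protein folding, cold, flavonoid, growth and defence genes among others, and the 9 without a gene name could not be matched. Few genes of these lists have a probe set named alone, such as 8 of 41 light reaction genes. Of the 7 genes on the iron list and the 4 on the nitrate list, 0 had a probe set named alone, so those lists give no comparison. The named members lie on all 5 chromosomes, with 7, 4, 3, 4 and 4 on chromosomes 1 to 5.

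BHLH101 is a basic helix-loop-helix transcription factor of the iron-deficiency response. In Col-0 its level was 4.09 and 5.42 at 12 °C, 4.70 and 5.15 at 2 h, and 7.16 and 7.12 at 24 h. In arp6-10 it was 5.18, 4.21, 5.87 and 4.51 at 12 °C, 4.55, 4.93, 5.14 and 5.02 at 2 h, and 5.73, 4.63, 4.21 and 4.79 at 24 h. Every arp6-10 array thus lay below both Col-0 arrays at 24 h, and the arp6-10 groups overlapped each other. The deposited intensities were 1.4 and 23.3 in Col-0 at 12 °C against 137.6 and 126.5 at 24 h, so the cool values lie close to the floor of the scale and the 5.24-fold rise is a rough value.

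AT1G47400, the iron-deficiency peptide gene, had Col-0 levels of 8.57 and 8.53 at 12 °C, 8.09 and 8.24 at 2 h, and 10.59 and 11.09 at 24 h. Its arp6-10 levels were 7.98, 7.94, 8.48 and 8.11 at 12 °C, then 7.89, 7.48, 7.52 and 7.10 at 2 h, and 8.80, 8.15, 6.27 and 7.22 at 24 h. The arp6-10 arrays at 24 h scattered from below to above those at 12 °C and 2 h and were all below both Col-0 arrays at 24 h. The arp6-10 change from 12 °C to 24 h was -0.58 ± 0.38 (SE, 16 arrays; limma adjusted p = 0.28), against a Col-0 rise of 2.29. At 24 h the arp6-10 mean differed from the Col-0 mean by -3.41 with 16 arrays and by -3.23 with 18, the most negative value among the members, described without a test because the Col-0 arrays chose the gene. Next to it on the chromosome, AT1G47410 was also higher in Col-0 at 24 h, by 1.61 (limma adjusted p = 0.00147, 18 arrays). The arp6-10 change of AT1G47410 was 0.40 (adjusted p = 0.0854, 16 arrays).

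The largest Col-0 rise on this scale, 3.27, belonged to AT4G36700, a locus without a symbol. Its deposited intensities were 3.8 and 1.5 in Col-0 at 12 °C and 167.0 and 171.5 at 24 h, so the cool values lie at the floor and the size of the rise depends on the constant added. It measured 4.28 and 4.12 at 12 °C, 4.35 and 4.29 at 2 h, and 7.42 and 7.52 at 24 h in Col-0. In arp6-10 it measured 4.09, 4.13, 6.44 and 4.14 at 12 °C, 4.13, 4.1, 4.17 and 4.41 at 2 h, and 4.82, 5.02, 4.18 and 4.87 at 24 h. It was therefore near the floor in every group but Col-0 at 24 h, apart from arp6-10 12 °C replicate 3. That array lay above every arp6-10 array at 24 h for AT4G36700, in contrast to its position on the axis over all probe sets, where it resembled them.

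DI19 is a zinc-finger protein named for its induction by drought. In Col-0 it read 9.89 and 10.06 at 12 °C, 10.44 and 10.03 at 2 h, and 11.22 and 11.78 at 24 h. The arp6-10 arrays read 10.15, 9.37, 11.60 and 9.75 at 12 °C, 10.37, 10.66, 10.45 and 10.47 at 2 h, and 12.03, 9.69, 12.02 and 11.36 at 24 h. Leaving aside the arrays that stood apart, the 3 arp6-10 groups did not overlap and stepped upward with time. With 16 arrays DI19 rose by 2.05 ± 0.21 (SE) from 12 °C to 24 h, or 4.14-fold (limma adjusted p = 7.13e-07), and it was already higher at 2 h, by 0.73 (adjusted p = 0.0127). The 2 h call was lost when 1 further array was left out (highest adjusted p = 0.0934). With all 18 arrays the change was 1.06 at 24 h (limma adjusted p = 0.465) and 0.27 at 2 h (adjusted p = 0.811), and neither passed.

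3xHMG-box2 is a high mobility group protein that associates with condensed mitotic chromosomes. Its Col-0 levels were 6.72 and 5.68 at 12 °C, 6.10 and 6.55 at 2 h, and 8.62 and 7.70 at 24 h. Its arp6-10 levels were 8.25, 8.48, 9.06 and 7.47 at 12 °C, 8.80, 8.25, 7.35 and 7.17 at 2 h, and 8.73, 7.32, 8.75 and 8.47 at 24 h. Each arp6-10 array, at every time, exceeded the Col-0 arrays at 12 °C and 2 h, and the arp6-10 groups overlapped. The arp6-10 mean at 12 °C exceeded that of Col-0 by 1.86, or 3.64-fold, which equals 95.2% of the Col-0 rise (16 arrays). This is a description only, since the cool Col-0 arrays enter both values and the rule. Its change in arp6-10 to 24 h was 0.58 ± 0.37 (SE; limma adjusted p = 0.258, 16 arrays). Of the 15 genes on the replication and cell division list, 2 had a tested probe set of their own, AUR1 and PRL. At 12 °C arp6-10 differed from Col-0 by -0.035 for AUR1, a mitotic kinase (limma adjusted p = 0.908, 16 arrays), and by 0.57 for PRL, a helicase subunit of the replication licensing complex (adjusted p = 0.0284). Their changes to 24 h in Col-0 were 0.47 and 0.59 (adjusted p = 0.305 and 0.126, 18 arrays). In the fit of 16 arrays 1 of these 2 genes was called higher in Col-0 at 24 h, as were 2687 of all 15922 probe sets. In arp6-10 AUR1 changed by 0.64 (adjusted p = 0.0121 with 16 arrays and 0.641 with 18) and PRL by 0.20 (adjusted p = 0.443, 16 arrays).

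PMEAMT is a phosphomethylethanolamine N-methyltransferase, which makes phosphocholine, a precursor of the membrane lipid phosphatidylcholine. In Col-0 it read 9.74 and 9.40 at 12 °C, 9.77 and 9.88 at 2 h, and 11.77 and 11.13 at 24 h. In arp6-10 the 12 °C arrays read 10.49, 10.85, 11.46 and 10.38, the 2 h arrays 10.75, 10.37, 10.47 and 10.59, and the 24 h arrays 11.71, 10.63, 11.33 and 11.46. The arp6-10 arrays before the shift lay between the cool and the warm Col-0 levels, except replicate 3, which was within the warm Col-0 range. PMEAMT rose by 0.92 ± 0.17 (SE), or 1.90-fold, from 12 °C to 24 h in arp6-10 (limma adjusted p = 0.000498, 16 arrays), from a level already 1.00 above that of cool Col-0. With all 18 arrays the change was 0.49 (adjusted p = 0.474) and did not pass.

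SBE2.2, a starch branching enzyme, read 7.87 and 8.01 in Col-0 at 12 °C, 8.58 and 8.21 at 2 h, and 9.86 and 9.34 at 24 h. In arp6-10 it read 9.38, 9.59, 10.21 and 9.61 at 12 °C, 9.79, 9.57, 9.0 and 9.37 at 2 h, and 10.45, 9.41, 10.05 and 10.04 at 24 h. All 12 arp6-10 arrays were above the Col-0 arrays at 12 °C and 2 h, and those at 12 °C exceeded the lower of the warm Col-0 arrays. The excess at 12 °C was 1.59, or 95.5% of the Col-0 rise, again a description only. A further 0.66 ± 0.19 (SE) was gained at 24 h in arp6-10 (limma adjusted p = 0.0154, 16 arrays), a call lost when either of 2 single arrays was left out. With all 18 arrays the gain was 0.29 (adjusted p = 0.613) and did not pass.

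BGLU44, a beta-glucosidase, read 8.72 and 8.77, then 9.08 and 8.84, then 10.62 and 10.55 in Col-0 at 12 °C, 2 h and 24 h. In arp6-10 it read 9.62, 9.86, 10.54 and 9.48 at 12 °C, 9.63, 9.40, 9.37 and 9.06 at 2 h, and 10.16, 9.34, 10.38 and 10.21 at 24 h. Before the shift arp6-10 was above both cool Col-0 arrays, and after it all arp6-10 arrays stayed below both warm Col-0 arrays. The change to 24 h in arp6-10 was 0.60 ± 0.15 (SE), or 1.51-fold (limma adjusted p = 0.00598, 16 arrays). With all 18 arrays it was 0.15 (adjusted p = 0.815) and did not pass. The Col-0 rise of 3.59-fold chose the gene, so the sizes in the 2 genotypes are not compared.

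TBL36 belongs to the trichome birefringence-like family, whose characterised members acetylate cell wall polysaccharides. Its Col-0 levels were 7.31 and 7.15 at 12 °C, 7.69 and 7.54 at 2 h, and 9.44 and 9.21 at 24 h. Its arp6-10 levels were 7.38, 7.51, 9.65 and 6.31 at 12 °C, 7.88, 7.91, 7.25 and 7.59 at 2 h, and 9.93, 6.26, 9.10 and 9.05 at 24 h. Apart from 12 °C replicate 3 and 24 h replicate 2, which had the opposite levels, TBL36 was low at 12 °C and 2 h and high at 24 h in both genotypes. With 16 arrays it rose 4.89-fold in arp6-10, by 2.29 ± 0.27 (SE; limma adjusted p = 4.54e-06), and with all 18 by 0.87, which did not pass.

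JAL22, a jacalin-related lectin, read 8.70 and 8.85 at 12 °C, 9.29 and 9.05 at 2 h, and 10.43 and 10.25 at 24 h in Col-0. The arp6-10 values were 9.58, 8.88, 10.19 and 8.20 at 12 °C, 9.90, 9.88, 8.93 and 9.69 at 2 h, and 11.14, 9.04, 10.28 and 10.29 at 24 h. Excluding the arrays that stood apart, the 24 h arrays exceeded all others of arp6-10, while those at 12 °C and 2 h overlapped. JAL22 rose by 1.68 ± 0.30 (SE), or 3.21-fold, from 12 °C to 24 h (limma adjusted p = 0.000263, 16 arrays). With all 18 arrays the change was 0.98 (adjusted p = 0.465) and did not pass.

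**Figure D2:**
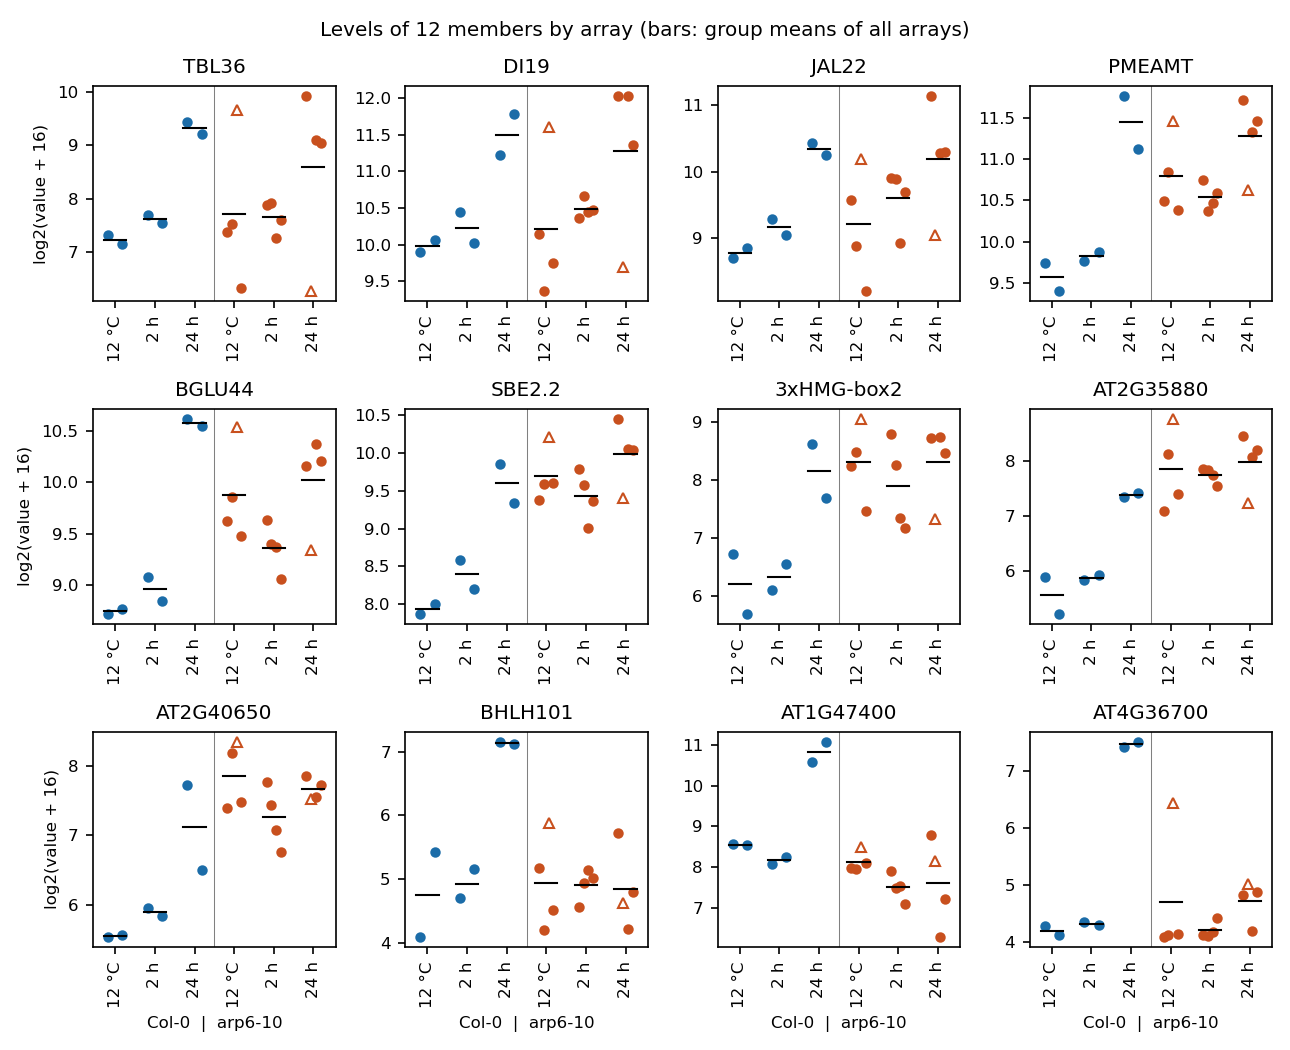
Level of 12 members on each array (log2 scale, 1 point per array) at 12 °C, 2 h and 24 h in Col-0 and arp6-10, with open triangles for the 2 arrays that stand apart. Bars are group means of all arrays. Leaving the triangles aside, TBL36 and DI19 end near the same level in both genotypes. SBE2.2, 3xHMG-box2, AT2G35880 and AT2G40650 start high in arp6-10, and BHLH101, AT1G47400 and AT4G36700 stay low there at 24 h.

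With all 18 arrays as labelled, the members' arp6-10 means at 24 h exceeded those at 12 °C for 24 of 31, with a median change of 0.40 and a range of -0.52 to 1.12. Of the 29 tested members 0 were called by limma, against 0% of all 15922 probe sets, and 5 had an unadjusted p under 0.05, with adjusted p from 0.465 to 0.998. Of all probe sets, 1691 had an unadjusted p under 0.05. Leaving out only 12 °C replicate 3 gave 3 called members, and leaving out only 24 h replicate 2 gave 9. The share of all probe sets called in those fits was not recorded, so nothing about the members is read from these counts.

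With the 16 arrays, 18 of the 29 tested members were called higher and 0 lower at 24 h than at 12 °C in arp6-10, against 14.0% of all probe sets called higher. The median change over the 29 was 0.92, beside -0.0075 over all tested probe sets and 0.45 for the same 29 with 18 arrays. Over all 31 members it was 0.70 with 16 arrays, beside 0.40 with 18. The choice of members did not use the arp6-10 arrays for this count, although the 16 arrays were chosen with their values known. Among the 20 named and tested members, 12 were called, from AT1G13650 at 7.14-fold to BGLU44 at 1.51-fold. The value for AT1G13650 is rough, since its cool levels lie close to the floor. The other 6 called were probe sets without a gene name, with changes from 1.18 to 1.91. Of the 18 calls, 14 held whichever further array was left out. The calls lost at least once were those of AT2G35880, SBE2.2, 252605_s_at and 245928_s_at, with a highest adjusted p of 0.143, 0.0794, 0.0661 and 0.124.

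AT1G13650 had the strongest change in arp6-10. It read 5.23 and 5.85 in Col-0 at 12 °C, 5.36 and 5.69 at 2 h, and 8.68 and 8.31 at 24 h. In arp6-10 it read 4.69, 5.21, 8.66 and 5.55 at 12 °C, 6.12, 6.50, 6.60 and 5.76 at 2 h, and 7.82, 4.63, 8.08 and 8.06 at 24 h. Without the arrays that stood apart the arp6-10 groups were separate, with 2 h in the middle. With those arrays left out, the change to 24 h was 2.84 ± 0.25 (SE, limma adjusted p = 1.35e-07). The change to 2 h was 1.09 ± 0.23 (adjusted p = 0.00259). With all 18 arrays these changes were 1.12 (limma adjusted p = 0.552) and 0.22 (adjusted p = 0.919), and neither passed. The deposited intensities of the kept arp6-10 arrays at 12 °C were 10, 22.4 and 29.8. These cool values lie close to the floor of the scale, so the size of the rise depends on the constant added.

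The remaining called loci carry no symbol and were raised in arp6-10 at 24 h by 1.76 for AT5G37990 (limma adjusted p = 0.000795), 1.59 for AT5G26260 (0.000779), 1.52 for AT3G45160 (6.71e-05), 1.34 for AT4G11210 (0.000121) and 0.70 for AT2G35880 (0.0233), all with 16 arrays. With all 18 arrays the changes of these loci ran from 0.14 for AT2G35880 to 1.03 for AT5G26260 (limma adjusted p from 0.465 to 0.875), and they were not called. The members that were not called with 16 arrays comprised AT1G09310, AT1G28400, AT1G74300, AT2G34300, AT2G40650, AT4G03180, AT1G47400 and 3xHMG-box2 among the named, and 3 unnamed probe sets. Their changes ran from -0.58 for AT1G47400 to 0.61 for 264587_at, and AT4G03180 at -0.43 had an adjusted p of 0.0762. The rule required a Col-0 rise of at least 1.5, so these changes are not compared with the Col-0 rises. A p that misses the threshold does not show that these genes were level.

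**Figure D3:**
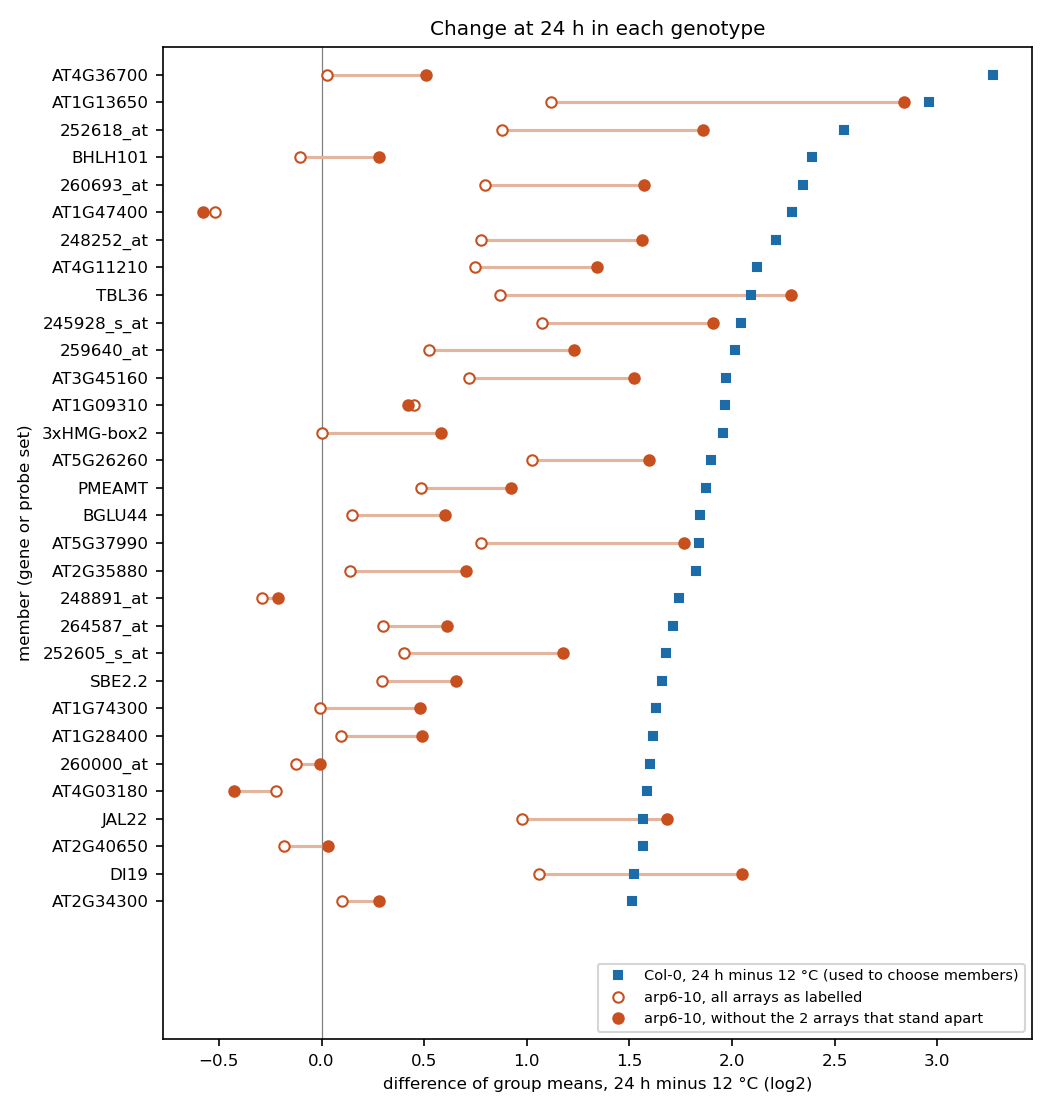
Difference between the 24 h and 12 °C group means (log2) for each member, in Col-0 (squares, the values that chose the members) and in arp6-10 with all arrays (open circles) and without the 2 arrays that stand apart (filled circles). Most filled circles lie to the right of the open ones, and AT1G47400, AT4G03180, 248891_at and 260000_at lie left of 0 in both.

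The 2 h arrays offer a comparison that does not use the arrays at 12 °C. From 2 h to 24 h, 1 of 29 members was called higher in arp6-10 with all 18 arrays (limma), against 0.904% of probe sets. Leaving out only 24 h replicate 2 gave 14, but the share of all probe sets in that fit was not recorded, so nothing is read from it. With 16 arrays 18 were called higher and 0 lower, against 7.06%, with a median change of 0.97, beside -0.00058 over all probe sets. These calls ranged from 1.68-fold for SBE2.2 to 3.34-fold for AT1G13650. AT1G74300, at 1.01 (adjusted p = 0.0176), and the unnamed 248891_at, at 0.75 (adjusted p = 0.00283), were called here but not against 12 °C, and 16 members were called against both. The call of JAL22 (0.97, adjusted p = 0.0226), and those of AT1G74300, SBE2.2 and AT5G26260, were each lost when at least 1 further array was left out.

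Calls at 2 h in arp6-10 were no more common among the members than among all probe sets, and nothing is read from their number. With 18 arrays, limma called 0 of 29 higher and 1 lower than at 12 °C, against 3.70% of probe sets called in either direction. With 16 arrays 2 were higher, DI19 and AT1G13650, and 1 lower, against 17.0%. The lower one, 248891_at, read 8.06, 8.36, 8.25 and 7.88 at 12 °C, 7.27, 7.15, 7.15 and 6.98 at 2 h, and 7.90, 7.72, 7.97 and 7.80 at 24 h in arp6-10. All its arrays at 2 h were below those at 12 °C and 24 h, with a change at 2 h of -1.0 (18 arrays, adjusted p = 0.00091). In Col-0 the same probe set read 6.51 and 5.91, then 6.28 and 6.33, then 7.94 and 7.97, without that dip.

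Before the shift, many members were already higher in arp6-10 than in Col-0. For 17 of 31, all with a test, every arp6-10 array at 12 °C lay above both Col-0 arrays at 12 °C, and these were the same 17 with 18 and with 16 arrays. Over all tested probe sets this held for 23.1% with 18 arrays and 28.2% with 16. The Col-0 arrays at 12 °C also entered the rule, and a gene is more easily chosen when they are low, so nothing is read from the comparison with this background. The median difference over the 31 was 1.13 with 18 arrays and 0.80 with 16, while over all tested probe sets it was -0.048 and -0.034.

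Set against each member's Col-0 rise, the excess of arp6-10 at 12 °C came to a median of 39.8% with 16 arrays, from -45.1% to 136%, and to 53.4% with 18. The Col-0 arrays at 12 °C enter both the excess and the rise, and they also chose the members. All percentages of the rise given here are therefore a description, and nothing is read from their size. In 3 members, AT2G40650, AT2G35880 and the unnamed 248891_at, the arp6-10 mean at 12 °C reached the Col-0 mean at 24 h (16 arrays; 6 members with 18). AT2G40650 read 5.54 and 5.56 in Col-0 at 12 °C, 5.96 and 5.85 at 2 h, and 7.73 and 6.50 at 24 h. In arp6-10 it read 7.39, 8.18, 8.34 and 7.47 at 12 °C, 7.77, 7.43, 7.07 and 6.76 at 2 h, and 7.85, 7.52, 7.56 and 7.72 at 24 h. Its cool and warm arp6-10 arrays overlapped, the cool ones at 4.37-fold the cool Col-0 mean, and its arp6-10 change to 24 h was 0.03 (limma adjusted p = 0.954, 16 arrays).

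AT2G35880 was also high in arp6-10 before the shift. Its Col-0 levels were 5.90 and 5.22 at 12 °C, 5.83 and 5.92 at 2 h, and 7.35 and 7.42 at 24 h, and its arp6-10 levels 7.09, 8.13, 8.78 and 7.41 at 12 °C, 7.87, 7.84, 7.75 and 7.55 at 2 h, and 8.46, 7.23, 8.07 and 8.21 at 24 h. All 12 arp6-10 arrays exceeded the cool Col-0 arrays, by 3.96-fold on average at 12 °C with 16 arrays. The others whose excess was at least 70% of the Col-0 rise were AT4G03180 at 99.7%, 264587_at at 97.0%, SBE2.2, 3xHMG-box2, AT1G09310 at 79.6%, AT1G28400 at 75.0%, AT1G74300 at 73.4% and 260000_at at 72.7%.

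**Figure D4:**
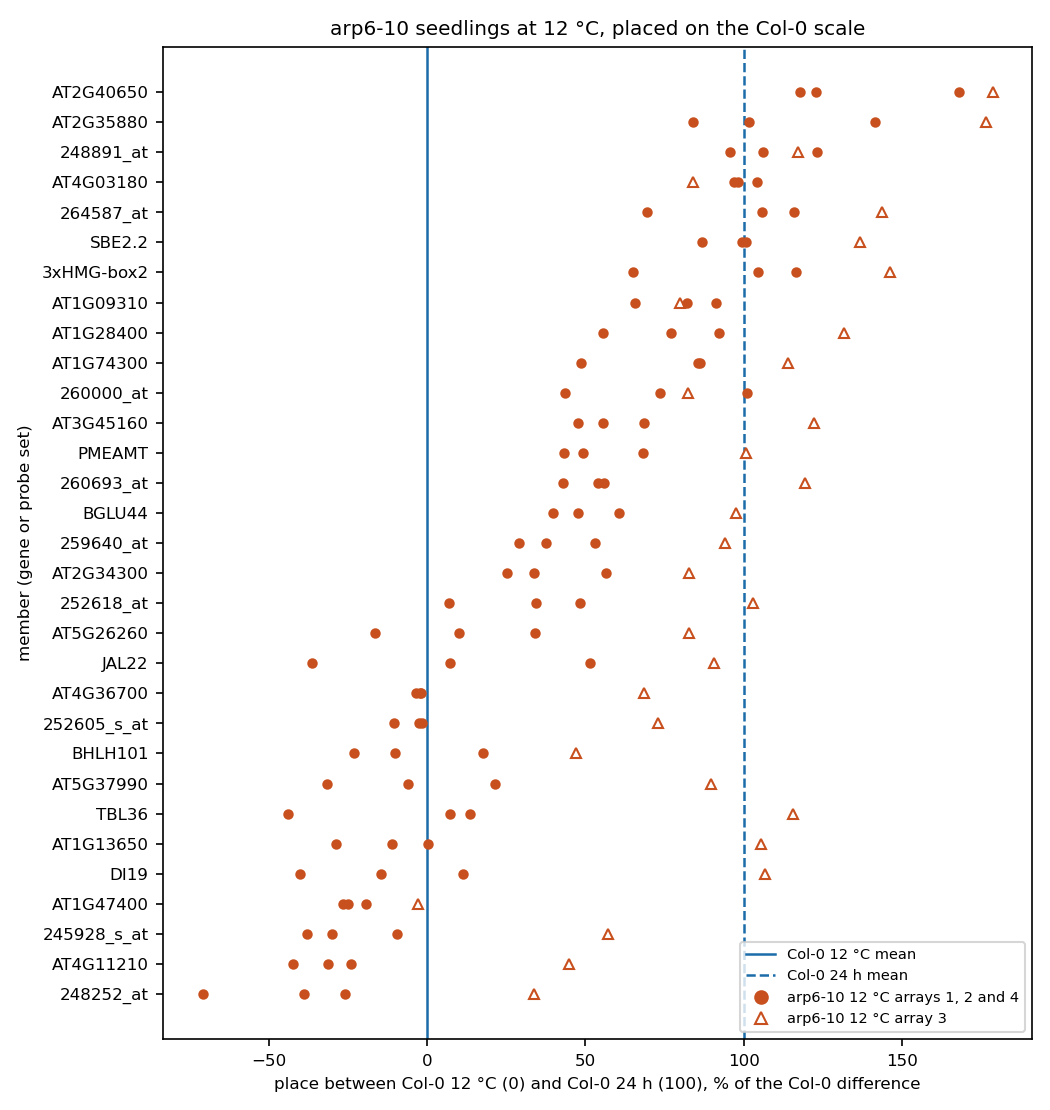
Place of each arp6-10 array at 12 °C (points, 1 per array, with an open triangle for replicate 3) between the Col-0 means at 12 °C (0) and 24 h (100), as a percentage of the Col-0 rise, for each of the 31 members (rows). The points run from above the warm Col-0 mean for AT2G40650, at 136% on average over 16 arrays, to below the cool Col-0 mean for 248252_at, at -45.1%, and the triangle lies to the right of the other points in most rows.

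The 17 members high in arp6-10 at 12 °C were then set beside the other 14. Of the 17, 7 were called higher at 24 h than at 12 °C (limma, 16 arrays; 14.0% of all probe sets), with a median change of 0.58, and 8 higher at 24 h than at 2 h (7.06% of all), with a median of 0.75. Of the 14, 12 were tested, 11 were called against 12 °C, with a median of 1.64, and 10 against 2 h, with a median of 1.27. The arp6-10 arrays at 12 °C enter both the split and the change from 12 °C, and the change from 2 h does not share them. The split was made on measured values and the difference between the 2 sets of members was not tested. The Col-0 rise itself had a median of 1.74 in the first set and 2.11 in the second.

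At the other end, 3 members had every arp6-10 array at 12 °C below both Col-0 arrays with 16 arrays, namely AT1G47400, AT4G11210 and 248252_at, against 30% of all tested probe sets, a share from which nothing is read because the Col-0 arrays entered the rule. AT4G11210 read 5.58 and 5.51 in Col-0 and 4.88, 4.64, 6.49 and 5.03 in arp6-10 at 12 °C, and 7.49 and 7.83 in Col-0 and 6.10, 5.45, 6.16 and 6.32 in arp6-10 at 24 h. It was lower in arp6-10 at both points apart from 12 °C replicate 3, and its cool arp6-10 levels were near the floor of the scale, so the sizes of its rise in the 2 genotypes are not compared.

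After 24 h of warmth, the median difference between arp6-10 and Col-0 over the members was -0.35 with 18 arrays and 0.018 with 16, beside -0.0034 and -0.0066 over all tested probe sets. For 8 of 31 members, 6 of the 29 tested, all arp6-10 arrays lay below both Col-0 arrays with all 18, against 12.9% of probe sets. Because high Col-0 values at 24 h chose the members, nothing is read from that share. The 8 were AT4G36700, AT1G13650, BHLH101, AT1G47400, AT4G11210, BGLU44, AT2G34300 and 248252_at. With 16 arrays the differences at 24 h were most negative for AT1G47400 at -3.41, AT4G36700 at -2.84, BHLH101 at -2.23, 248252_at at -1.65 and AT4G11210 at -1.47. They were most positive for AT2G35880 at 0.86, AT3G45160 at 0.68, AT2G40650 at 0.59 and SBE2.2 at 0.58, each with the arp6-10 mean above that of Col-0.

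Levels of other gene groups were set beside those of the members. The mean of 8 light reaction genes of photosynthesis in Col-0 was 11.43 to 11.71 at 12 °C, 12.05 to 12.27 at 2 h, where the members were flat, and 12.65 to 12.66 at 24 h. In arp6-10 at 12 °C it was 11.39 to 11.68, overlapping cool Col-0, or 12.72 on replicate 3. The mean of 3 carbon fixation genes was 12.36 to 12.56 in cool Col-0, 12.86 to 13.14 at 2 h and 13.17 to 13.39 at 24 h. It was higher in cool arp6-10, like many members, at 12.81 to 13.10, or 13.43 on replicate 3. The mean of 3 root markers in Col-0 was 9.58 to 9.62 at 12 °C, 9.40 to 9.75 at 2 h and 9.64 to 10.23 at 24 h, and in cool arp6-10 9.48 to 10.12. The array median before normalization also differed, at 6.27 to 6.39 in cool Col-0, 6.55 to 6.65 in warm Col-0 and 6.52 to 6.71 in cool arp6-10. The part of these in the members' levels was not tested. No seed storage gene had a named probe set.

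Chromosomal neighbours of the named members were examined as well. Of 18 tested genes next to a named member, 0 were members. In Col-0 at 24 h, with 18 arrays, limma called 4 of them higher, against 10.3% of all probe sets, and 0 lower. In arp6-10, with 16 arrays, it called 1 higher and 4 lower, against 14.0% and 14.9%. With 18 arrays it called 0% of all probe sets in arp6-10. The counts of the 2 genotypes come from different fits and are not compared. Their Col-0 changes ran from -0.73 to 1.61, and the highest was AT1G47410 beside AT1G47400.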

How the data were processed

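The deposited table holds linear signal intensities for 22810 probe sets on 18 arrays, made by the authors with GCOS, per the submitters' processing notes, with no version or algorithm named. Deposited intensities ran from 0 to 37829.8, with a mean trimmed by 2% at each end near 250.03 on every array, and no detection calls were used. After removal of 64 controls, log2(intensity + 16) was quantile normalized, sets whose mean fell below the 30th percentile were not tested, and 15922 were fitted to the 6 group means (limma 3.58.1, R 4.3.3, lmFit and eBayes with a trend, two-sided, 12 residual degrees of freedom, or 10 with 16 arrays). Calls have a Benjamini-Hochberg adjusted p under 0.05 over all 15922. The scripts were tested on simulated data. A level under 5 is near the floor, and the scale understates changes of dim genes. The number of arrays limits the precision.

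Names come from the platform annotation, updated through RefSeq: 13513 sets are paired with 1 gene (13436 matched), 503 with several and 8730 are not listed. No build is named, so no coordinates are given. The members and lists were chosen with earlier results of these data known. The members named were the 20 with the largest Col-0 rise, the 10 largest and smallest arp6-10 changes and 12 °C differences, and those nearest each limit. Alternatives were the deposited scale, pseudocounts of 1 and 64, other filters, a fit of 2 groups alone, array weights, a replicate block and each array left out.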

Additional observations from a re-analysis of the deposited data

Results flagged for a closer look

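Of 96 groups of 4 arp6-10 arrays examined (the 31 members at each time, and the median over the members), 7 held an array far from the other 3, and chance alone flags about 1 in 20. All 7 fell on the arrays labelled arp6-10 12 °C replicate 3, with 3, and arp6-10 24 h replicate 2, with 4. At 12 °C replicate 3 they were AT4G36700 at 6.44, 252605_s_at at 6.61 and 260693_at at 10.13, each above the other arrays. At 24 h replicate 2 they were AT1G13650 at 4.63, 252618_at at 9.70, 259640_at at 9.45 and 260693_at at 8.61, each below the other arrays.

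The unnamed probe set 248891_at changed by -0.29 in arp6-10 from 12 °C to 24 h with all 18 arrays, against a rise of 1.74 in Col-0, and all 4 arp6-10 arrays at 24 h lay below the arp6-10 mean at 12 °C while both Col-0 arrays lay above theirs. The difference between the genotypes was not tested, and the Col-0 rise is a value that chose the probe set.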

How the results depend on the processing

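The list itself depended on the scale. The same rule gave 65 members on the values as deposited (28 of the 31 among them), 40 with a pseudocount of 1 (24), 21 with 64 (14) and 26 to 68 when a Col-0 array was left out, the highest without Col-0 24 h replicate 2 and 53 without Col-0 2 h replicate 1. The cause was not tested. With all 18 arrays, array weights gave 14 called members at 24 h against 12 °C in place of 0, and 17 against 2 h in place of 1. In the alternative settings of this section, apart from the 16 arrays, only members were counted. The share of all probe sets called there is not known, so nothing about the members is read from these counts. Leaving out 1 array, or both that stand apart, gave 0 to 18 called at 24 h against 12 °C, 1 to 3 at 2 h, and 0 to 18 at 24 h against 2 h. The median changes then ran from 0.28 to 0.70, from -0.39 to 0.057 and from 0.49 to 0.95, and the genotype differences from 0.80 to 1.22 at 12 °C and from -0.50 to 0.018 at 24 h. With 16 arrays a further array left out gave 15 to 18, 2 to 4 and 15 to 20 called members. The median changes were 0.67 to 1.00, -0.0093 to 0.089 and 0.76 to 1.04, and the genotype differences 0.60 to 0.93 and -0.27 to 0.11. The 24 h difference was -0.048 on the values as deposited. The medians at 2 h and between genotypes at 24 h thus changed sign with the arrays used.

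Of 18 pairs of same-numbered arrays, 4 had deviations that correlated above 0.1, with a range of -0.40 to 0.56. The pairs include the 2 arrays that stand apart, and Col-0 has only 2 arrays per group. The check therefore cannot exclude pairing, and the replicate block is given as an alternative. With 16 arrays the replicate block gave 6 called members at 2 h in place of 3, and 20 and 22 in the other comparisons in place of 18. These counts too lack a share over all probe sets.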
